A study of Mus musculus with 8 samples.

Results

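Memory T follicular helper (Tfh) cells were compared with memory T helper 1 (Th1) cells in mice of both genotypes of this study, to describe the lineage differences that held with and without Rictor. All 8 arrays of the series were used, 4 from Tfh cells and 4 from Th1 cells, and all 11217 genes that were annotated with 1 symbol and bright enough to test. The animals had been infected with LCMV Armstrong, a strain that mice clear as an acute infection, and the cells were polyclonal CD4 memory cells of the spleen taken at day 60. The 4 groups were Rictor-null Tfh, WT Tfh, Rictor-null Th1 and WT Th1, with 2 arrays each. Each array held 100 ng of total RNA pooled from at least 10 mice, so that differences between single animals were averaged. The strain, sex and age of the mice, the promoter or Cre line behind the deletion, and the surface markers used to sort the cells are not given in the texts at hand. Whether Cxcr5 or another gene below had been used in the sort is therefore not known.

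Tfh cells are CD4 T cells that enter B cell follicles under the chemokine receptor CXCR5 and help B cells through the cytokine IL-21 and contact signals. Their identity rests on the repressor BCL6. Th1 cells migrate to tissues and activate macrophages through interferon gamma, under the T-box factor T-bet (Tbx21) and the repressor Blimp-1 (Prdm1), which opposes BCL6. Rictor distinguishes mTOR complex 2, which phosphorylates AKT and thereby restrains FOXO transcription factors.

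Values are probe set signals, and differences are log2(signal + 32) of Tfh minus Th1, so that positive values are higher in Tfh cells. Folds are of the signal plus 32 and understate the change of dim genes. The p-values measure the spread between these pooled arrays, whose small number limits the precision. With genotype as a block, that spread also holds any difference of the lineage effect between genotypes. For Gzma, as an example, the SE was 0.126 with the block and 0.069 within each genotype. A gene is said to be called when its adjusted p from limma was under 0.05 over all genes tested. Median signals per array lay between 35.7 and 37.7. The second principal component (28.6% of the variance) separated the lineages, with scores of 2.85 to 11.1 for Tfh and -11.9 to -1.57 for Th1 arrays. The first (40.2%) separated the genotypes, with -12.9 to -2.18 for Rictor-null and 3.03 to 12.5 for WT arrays. Both components mixed the 2 factors. Within each genotype Tfh arrays were above Th1 arrays on the first, and within each lineage Rictor-null arrays were above WT arrays on the second. On the third (18.3%), replicate 2 of Rictor-null Tfh (12.4) stood apart, and so did replicate 1 of WT Th1 (6.49). All 10 of the CD4 T cell genes measured were above the array median on every array, and the CD8 genes Cd8a (39.1 to 52.2) and Cd8b1 (43.3 to 62.5) were close to it. Of 17 B cell markers on the array, 12 were below the array median on all arrays. However, 4 were above it on all, among them Ighm, the immunoglobulin mu chain (1725 to 2525), and Cd22 (133 to 352). Rictor itself did not pass the test between lineages (0.18 ± 0.055, SE, n = 4 arrays per lineage, adjusted p = 0.0597). Its signals were 563 and 576 for Rictor-null Tfh, 560 and 563 for WT Tfh, 493 and 474 for Rictor-null Th1, and 468 and 556 for WT Th1. On this probe set they were thus not lower on the arrays labelled Rictor-null. Which exons were removed is not stated, so this probe set may lie outside them and checks nothing about the labels, which name the genotypes throughout. Of 4 other Rictor probe sets, 1 had the same direction between lineages and 0 were called. Their levels by genotype were not compared here.

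The promoters of the leading genes of each direction are printed here so that a reader can see the sequence in front of the genes the results turn on. Each is the 250 bases upstream of the start site that the promoter table lists for the gene, on the gene's own strand, from RefSeq with the build GRCm38.p6. The windows of Eomes, Igfbp4 and Pdlim4 overlap the annotated span of the gene, which begins at another start site. They lie at chr9:118477939-118478188 (Eomes, plus strand), chr13:113180966-113181215 (Gzmk, minus strand), chr11:99040994-99041243 (Igfbp4, plus strand) and chr11:54069018-54069267 (Pdlim4, minus strand). Capitals mark a match to any of 7 motifs searched on both strands.
Eomes: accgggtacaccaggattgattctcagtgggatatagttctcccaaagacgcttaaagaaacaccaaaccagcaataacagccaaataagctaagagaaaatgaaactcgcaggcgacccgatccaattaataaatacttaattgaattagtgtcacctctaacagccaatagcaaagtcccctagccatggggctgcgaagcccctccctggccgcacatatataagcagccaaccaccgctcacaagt
Gzmk: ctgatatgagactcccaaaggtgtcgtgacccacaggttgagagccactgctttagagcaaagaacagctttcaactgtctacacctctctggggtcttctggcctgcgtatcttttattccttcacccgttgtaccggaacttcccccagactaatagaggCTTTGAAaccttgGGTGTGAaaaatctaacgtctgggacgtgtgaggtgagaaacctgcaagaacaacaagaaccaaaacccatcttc
Igfbp4: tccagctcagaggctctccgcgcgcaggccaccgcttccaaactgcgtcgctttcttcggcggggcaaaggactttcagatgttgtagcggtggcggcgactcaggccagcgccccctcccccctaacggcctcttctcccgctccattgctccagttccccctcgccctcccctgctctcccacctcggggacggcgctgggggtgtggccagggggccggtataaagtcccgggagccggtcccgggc
Pdlim4: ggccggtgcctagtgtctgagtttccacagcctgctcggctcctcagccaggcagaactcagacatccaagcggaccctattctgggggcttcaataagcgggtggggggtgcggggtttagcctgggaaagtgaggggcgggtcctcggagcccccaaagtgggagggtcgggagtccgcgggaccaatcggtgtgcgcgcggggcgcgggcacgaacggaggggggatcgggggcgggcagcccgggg

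The Gzmk promoter held the T-box letters GGTGTGA and the TCF/LEF letters CTTTGAA. The other 3 promoters held none of the 7 motifs. Across all 32851 promoters in the table the T-box letters were in 3.33%, and in 2.94% of the 11543 promoters of the genes tested. They were in 7 of 109 promoters (6.42%) of the Tfh-higher genes kept in both genotypes and in 7 of 329 (2.13%) of the Th1-higher ones. For the TCF/LEF letters the shares were 4.46% of all promoters, 3.23% of those of genes tested, 1.83% of Tfh-higher and 3.65% of Th1-higher ones. The RUNX letters TGTGGTT were in 4.40% of all promoters, 3.29% of those of genes tested, 3.67% of Tfh-higher and 5.17% of Th1-higher ones. The FOXO letters GTAAACA were in 3.17% of all promoters, in 2.31% of those of genes tested, in none of the 109 Tfh-higher and in 1.22% of Th1-higher ones. The spaced palindrome TTCNNNGAA, read by STAT factors and close to the BCL6 motif, was in 7.02% of all, 5.77% of tested, 7.34% of Tfh-higher and 7.90% of Th1-higher ones. The E-box CAGCTG of ASCL2 and E proteins was in 4271 of all promoters, in 11.8% of those of genes tested, in 12.8% of Tfh-higher and in 11.6% of Th1-higher ones, and the letters AGTGAAA of PRDM1 and IRF factors in 3.70% of all, 2.98% of tested, 2.75% of Tfh-higher and 2.43% of Th1-higher ones. Several promoters of a gene were counted each on their own, and a match describes letters in this window only.

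More genes were called higher in Th1 than in Tfh cells. With genotype as a block, 1442 of 11217 genes (12.9%) were called, 306 higher in Tfh cells (2.73%) and 1136 higher in Th1 cells (10.1%), and 3420 had an unadjusted p under 0.05. The split depended on the scaling between arrays. After quantile normalization 366 genes were called higher in Tfh and 589 higher in Th1 cells, which raised the Tfh share of calls from 21.2% to 38.3%. Median scaling moved it the other way, with 274 and 1749 genes and a Tfh share of 13.5%. The median over all genes was -0.03, and was -0.01 after quantile normalization and -0.05 after median scaling. Leaving out 1 array gave 632 calls without Rictor-null Tfh replicate 1 and 2694 without Rictor-null Tfh replicate 2. The count was 768 and 641 when an array of WT Tfh (replicate 1, 2) was omitted, 777 without Rictor-null Th1 replicate 1, and 960 and 858 without WT Th1 replicate 1 and 2.

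Taken alone, WT cells gave 1653 calls between lineages (14.7%), with 347 higher in Tfh (3.09%) and 1306 higher in Th1 cells (11.6%). Rictor-null cells gave 1090 (9.72%), with 367 (3.27%) and 723 (6.45%). Without WT Tfh replicate 1 or 2 the WT comparison gave 196 or 270 calls, and without WT Th1 replicate 1 or 2 it gave 382 or 646. It gave 2669 or 2656 without replicate 1 or 2 of Rictor-null Tfh, whose arrays enter only the pooled spread. The Rictor-null comparison gave 387 or 534 calls without replicate 1 or 2 of Rictor-null Th1, and 1641 without replicate 1 of Rictor-null Tfh. The WT and the Rictor-null comparison share no array. A gene was counted as kept when both comparisons called it in the same direction, which held for 406 genes (3.62%), 104 higher in Tfh (0.927%) and 302 higher in Th1 cells (2.69%). These were 24.6% of the WT calls and 37.2% of the Rictor-null calls. A further 33 genes were called in both genotypes in opposite directions. Across all genes the WT and Rictor-null differences had Pearson r = 0.40 and Spearman rho = 0.30. These describe genes, which are not independent replicates. The kept count was 140 and 160 without WT Tfh replicate 1 and 2, 202 and 256 without Rictor-null Th1 replicate 1 and 2, and 192 and 245 without WT Th1 replicate 1 and 2. It was 438 without both arrays that stood apart on the third component, a choice made after seeing the data.

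**Figure D1:**
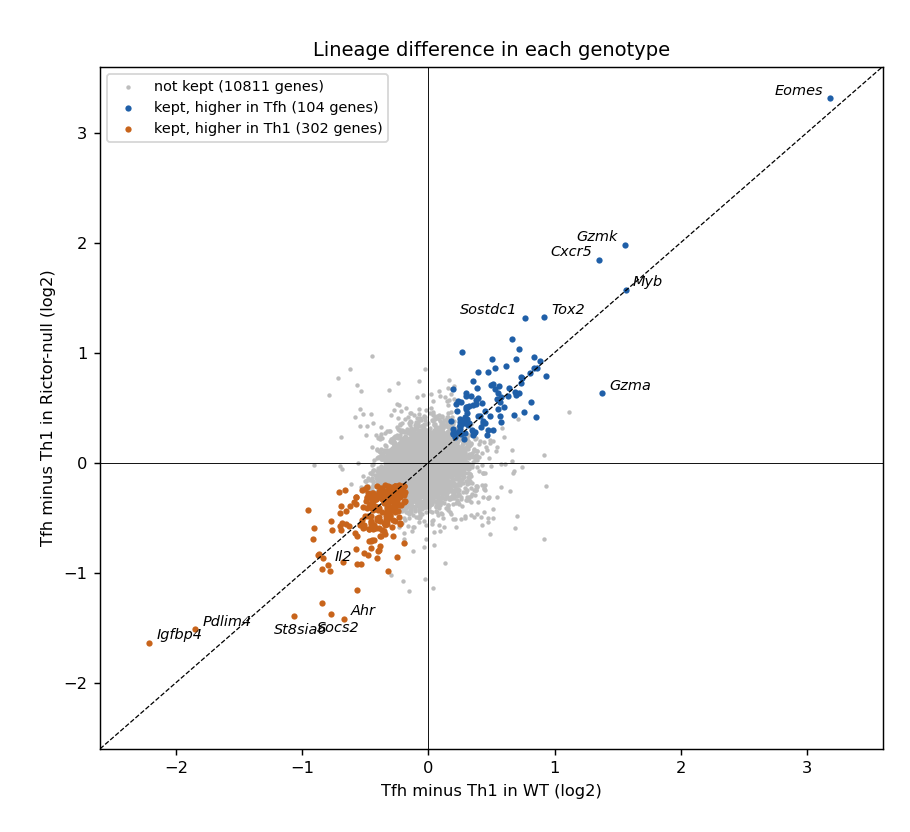
Tfh minus Th1 difference (log2) of each of the 11217 genes in WT cells (x axis) and in Rictor-null cells (y axis), with the 104 and 302 kept genes coloured by direction and the dashed line at equal differences. Eomes lies far from all other genes, and the kept genes share the sign of both axes because they were chosen for it.

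The kept genes were mostly small in effect. Their median absolute difference was 0.372 log2 with the block, with quartiles of 0.292 and 0.511. The Tfh-higher genes had a median of 0.469 and the Th1-higher genes one of -0.346. More than 2-fold differences were seen for 7 Tfh-higher and 6 Th1-higher genes. The Tfh and Th1 arrays did not overlap over all 8 arrays for 290 kept genes (71 and 219), where such separation was seen for 1556 of all genes (13.9%), 349 with Tfh arrays higher (3.11%) and 1207 with Th1 arrays higher (10.8%).

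Eomes, a T-box factor known from cytotoxic and memory CD8 T cells, had by far the largest lineage difference and was higher in the Tfh cells. Its signal was 1184 and 1030 for Rictor-null Tfh and 912 and 833 for WT Tfh arrays. In Th1 cells it was 85.4 and 79.7 on the Rictor-null and 66.9 and 68.3 on the WT arrays. The groups were far apart, with the lowest Tfh array many fold above the highest Th1 array. The difference was 3.25 ± 0.057 log2 or 9.49-fold (SE, n = 4 arrays per lineage, adjusted p = 3.2e-10), with 3.18 in WT and 3.31 in Rictor-null cells. A second probe set of the gene gave 3.16.

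Gzmk, the granule protease granzyme K, followed with 1823 and 1759 for Rictor-null Tfh, 1262 and 1176 for WT Tfh, 380 and 485 for Rictor-null Th1, and 396 and 387 for WT Th1 cells. All Tfh arrays were above all Th1 arrays, by 1.77 ± 0.093 or 3.41-fold (adjusted p = 3.35e-06). Cxcr5, the follicle homing receptor, was at 241 and 297 for Rictor-null Tfh and 183 and 179 for WT Tfh cells. It was at 46.8 to 55.7 on the 4 Th1 arrays, near the array median, which gave 1.60 ± 0.098 (adjusted p = 6.37e-06). Myb, a factor of lymphoid progenitors and memory T cells, was at 760 to 912 on the Tfh and 233 to 295 on the Th1 arrays. Its difference was nearly the same in WT (1.56) and Rictor-null cells (1.57), and was 1.57 ± 0.040 with the block (adjusted p = 7.73e-09). Tox2, an HMG-box factor of Tfh cells, was at 897 and 1045 for Rictor-null Tfh and 428 and 432 for WT Tfh cells, against 376 and 361 for Rictor-null Th1 and 225 and 201 for WT Th1 cells. Here the lineages separated narrowly, with the WT Tfh arrays close to the Rictor-null Th1 arrays, and the difference was 1.12 ± 0.084 (adjusted p = 2.99e-05).

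Among kept genes with no overlap of the lineages over the 8 arrays, the other 10 of the 15 largest Tfh-higher ones lay between 0.75 and 0.90 log2. They include Pou2af1 (0.90), a coactivator of octamer factors, Crtam (0.90), a surface receptor of cytotoxic CD4 cells, and Ccl3 (0.87), the chemokine MIP-1 alpha. Prf1 (0.82), the pore protein perforin, and Slamf7 (0.81), a SLAM family receptor, were among them, as were Plek (0.86), a pleckstrin of haematopoietic cells, and Jdp2 (0.85), a repressor that binds AP-1 sites. Crtam was at 220 to 244 on the Tfh and 104 to 111 on the Th1 arrays. Slamf7 was at 106 to 120 on the Tfh and 48.0 to 54.2 on the Th1 arrays, with nearly the same difference in WT (0.81) and Rictor-null cells (0.82). Ctla2b (0.76), Rhoq (0.75) and Tm6sf1 (0.75) complete the set.

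**Figure D2:**
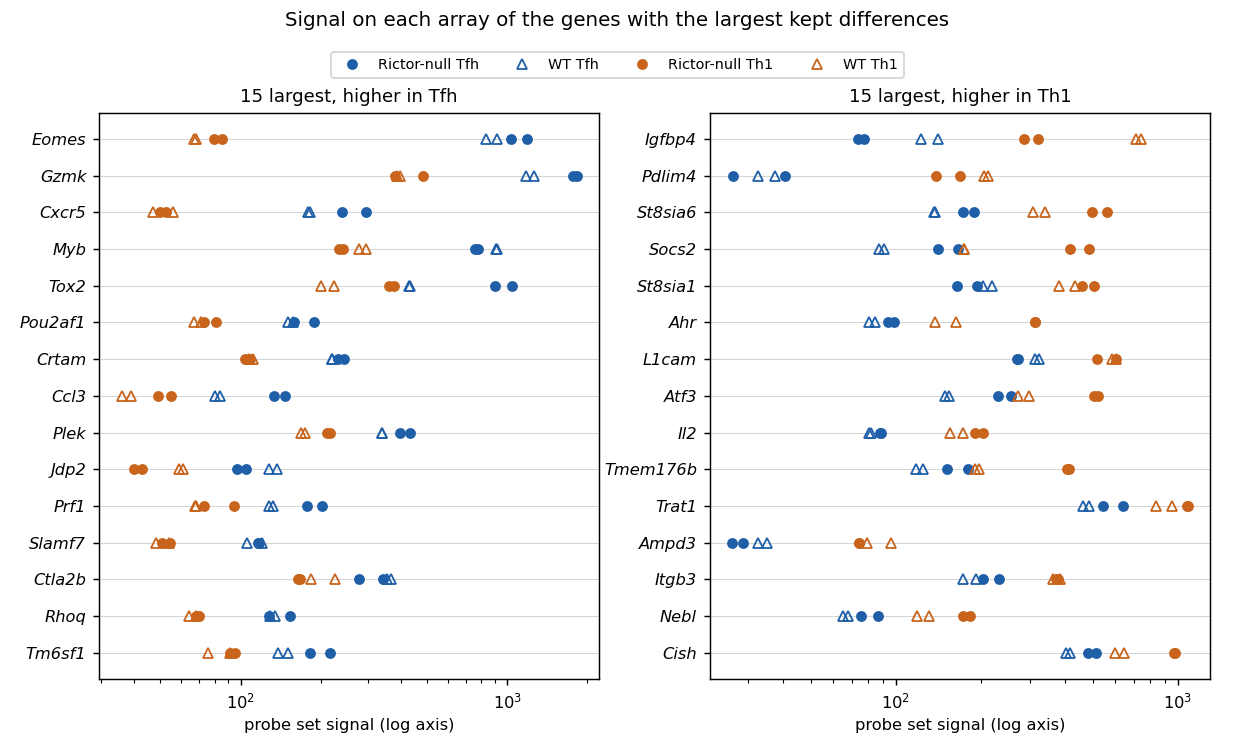
Probe set signal (log axis) on each of the 8 arrays for the 15 largest Tfh-higher (left) and 15 largest Th1-higher genes (right) among kept genes whose lineages did not overlap over the 8 arrays, where blue marks Tfh, orange Th1, filled circles Rictor-null and open triangles WT. All Tfh arrays lie on the same side of all Th1 arrays for each gene, as that choice required, and Eomes has the widest gap.

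Bcl6 and Cxcr5, which define Tfh cells, were higher in the arrays labelled Tfh. Of 12 Tfh transcription factors tested, 6 were called higher in Tfh cells, against 2.73% of all genes, 6 were not called, and 0 were called higher in Th1 cells (1 at an unadjusted p under 0.05). Of the 6, 5 were kept, and the list median was 0.31 against -0.03 over all genes. The ordinary linear model called 5 higher in Tfh and 0 higher in Th1 cells. Over all genes 2.73% were called higher in Tfh and 10.1% higher in Th1 cells, and 0.927% and 2.69% were kept. The counts of every list below are to be read beside these shares. Bcl6 was at 192 and 186 for Rictor-null Tfh, 138 and 143 for WT Tfh, and 90.0 to 94.5 on the 4 Th1 arrays. The lineages did not overlap, and the difference was 0.65 ± 0.067 (adjusted p = 0.000228). Ikzf3, the Ikaros family factor Aiolos, was higher by 0.46 ± 0.042, with 660 to 829 on the Tfh and 464 to 625 on the Th1 arrays. Maf, which drives IL-21 in Tfh cells, was not called (0.36 ± 0.117, adjusted p = 0.073), with replicate signals as far apart as 2091 and 1481 for Rictor-null Tfh and 988 and 1302 for WT Th1 cells. Of its 5 other probe sets, 2 were called higher in Tfh cells (0.59, adjusted p = 0.00045, and 0.18, adjusted p = 0.0202), and 3 were not called.

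Among 20 genes of Tfh receptors, adaptors and helper cytokines, 9 were called higher in Tfh and 5 higher in Th1 cells. These compare with 2.73% and 10.1% of all genes. Of the called genes 8 and 3 were kept, against 0.927% and 2.69% of all genes, and the list median was 0.11. Sh2d1a, the adaptor SAP that couples SLAM receptors to kinases, was at 766 to 1007 on the Tfh and 465 to 624 on the Th1 arrays, a difference of 0.66 ± 0.041 (adjusted p = 6.68e-06). Pdcd1, the inhibitory receptor PD-1, was higher by 0.61 ± 0.084, with 212 and 238 for Rictor-null Tfh, 123 and 114 for WT Tfh, 108 and 118 for Rictor-null Th1, and 79.4 and 85.9 for WT Th1 cells. The WT Tfh and Rictor-null Th1 arrays overlapped, so that for Pdcd1 the lineages separated within each genotype only. The same held for Il21, at 354 and 319 for Rictor-null Tfh, 180 and 180 for WT Tfh, 196 and 223 for Rictor-null Th1, and 141 and 138 for WT Th1 cells (0.46 ± 0.069). Pdcd1 was no longer kept without WT Tfh replicate 1 or WT Th1 replicate 1, and Il21 without any 1 of the 4 WT arrays, although the calls with the block remained. Sostdc1, a secreted protein that blocks BMP and Wnt ligands, was higher by 1.04 ± 0.094. It was at 418 and 404 for Rictor-null Tfh and 117 and 122 for WT Tfh cells. In Th1 cells it was at 141 and 151 on the Rictor-null and 55.9 and 58.2 on the WT arrays. The Rictor-null Th1 arrays were above the WT Tfh arrays, so the lineages separated within each genotype only. Icos, a costimulatory receptor that Tfh cells need, was not called (0.12 ± 0.042, adjusted p = 0.0807).

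The kept genes of the list that were higher in Th1 cells were Il4, a cytokine of Th2 and Tfh cells, P2rx7, the ATP-gated channel, and Btla, an inhibitory receptor. Il4 was dim, at 22.6 to 43.5 on the Tfh and 36.9 to 69.8 on the Th1 arrays (-0.41 ± 0.046, adjusted p = 0.000408). P2rx7 gave -0.46 ± 0.052 and Btla -0.23 ± 0.040. Il4 left the kept set without WT Tfh replicate 1, and Btla when any 1 array of the other 3 groups than Rictor-null Tfh was left out.

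Of 12 cytotoxic granule genes tested, 6 were called higher in Tfh cells, against 2.73% of all genes, 6 were not called, and 0 were called higher in Th1 cells (0 at an unadjusted p under 0.05). Of the 6, 4 were kept, and the list median was 0.21. With the ordinary linear model 5 were called higher in Tfh and 0 higher in Th1 cells. Besides Gzmk and Prf1 these were led by Gzma, granzyme A, and Nkg7, a granule membrane protein. Gzma was at 1633 and 1472 for Rictor-null Tfh and 980 and 998 for Rictor-null Th1 cells, against 300 and 288 for WT Tfh and 99.1 and 87.9 for WT Th1 cells. Its levels followed genotype more than lineage, and the lineage difference was 1.01 ± 0.126 (adjusted p = 0.000807). Nkg7 was at 2731 to 2950 on the Tfh and 1938 to 2316 on the Th1 arrays (0.41 ± 0.042). Of 6 NK lectin receptors tested, 2 were called higher in Tfh cells (Klrc1 and Klrd1, 0.19) and 1 higher in Th1 cells (Klrb1f, -0.24, adjusted p = 0.0484). The calls of Klrd1 and Klrb1f ended without any 1 of 6 and of 7 arrays. Klrc1, the inhibitory receptor NKG2A, was higher in Tfh cells by 0.65 ± 0.049 and was kept. Its signals were 86.0 and 77.7 for Rictor-null Tfh and 38.6 and 46.4 for Rictor-null Th1 cells, against 165 and 160 for WT Tfh and 87.2 and 89.5 for WT Th1 cells. Of 3 markers of NK and gamma delta T cells on the array, 2 were below the array median on all arrays, and their summed signal was 67.3 to 77.6 in Tfh and 68.5 to 75.3 in Th1 cells.

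Several inflammatory chemokines that Th1 cells are known to make were also higher in the Tfh cells. Of 24 chemokine ligands and cytokines, 7 were called higher in Tfh and 5 higher in Th1 cells, against 2.73% and 10.1% of all genes. Of these 6 and 3 were kept, and the list median was -0.02. Ccl3 was at 146 and 134 for Rictor-null Tfh and 80.2 and 83.6 for WT Tfh cells, above 54.8 and 49.1 for Rictor-null Th1 and 35.8 and 39.0 for WT Th1 cells. Ccl4, the related MIP-1 beta, was higher by 0.68 ± 0.072 and Xcl1, lymphotactin, by 0.60 ± 0.051. Xcl1 was at 62.5 to 87.2 on the Tfh and 35.3 to 41.1 on the Th1 arrays, where it was near the array median. Il10, a suppressive cytokine, was at 154 and 146 for Rictor-null Tfh cells and at 33.3 to 60.6 on the other 6 arrays (0.64 ± 0.123, adjusted p = 0.00914). Il10 was no longer kept without any 1 of the 4 WT arrays. Il2, the T cell growth factor, was the clearest cytokine higher in Th1 cells, at 156 to 204 on the Th1 and 80.7 to 89.0 on the Tfh arrays (-0.86 ± 0.049, adjusted p = 5.09e-06).

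Tbx21 and Ifng, which define Th1 cells, were not called between the lineages. Tbx21 was at 422 to 465 on the Tfh and 444 to 463 on the Th1 arrays (-0.04 ± 0.041, adjusted p = 0.551). Ifng, interferon gamma, was at 1564 to 1605 on the Tfh and 1421 to 1540 on the Th1 arrays. Its difference of 0.11 ± 0.041 was not called (adjusted p = 0.11), although all Tfh arrays were above all Th1 arrays. Runx3 (0.06 ± 0.049), a factor that acts with T-bet, and Selplg (-0.05 ± 0.046), the P-selectin ligand, were not called. Id2, an inhibitor of E proteins, gave -0.29 ± 0.130 and was not called (adjusted p = 0.161), but its 2 other probe sets were called higher in Th1 cells (-0.43, adjusted p = 0.00115, and -0.36, adjusted p = 0.0254).

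Of 9 Th1 transcription factors tested, 1 was called higher in Tfh cells, Eomes, and 2 higher in Th1 cells, with a median of -0.04. These were Bhlhe40 (-0.25 ± 0.041), a factor that sustains interferon gamma production, and Prdm1 (-0.18 ± 0.053, adjusted p = 0.0494). Bhlhe40 was at 3478 and 3706 for Rictor-null Tfh and 1849 and 1836 for WT Tfh cells, against 4252 and 4308 for Rictor-null Th1 and 2220 and 2156 for WT Th1 cells. Its levels differed by genotype more than by lineage. Bhlhe40 left the kept set when any 1 array but Rictor-null Tfh replicate 2 was left out, and the call of Prdm1 ended when any 1 array but WT Tfh replicate 2 was.

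Of 19 Th1 receptors and effector products, 4 were called higher in Tfh and 3 higher in Th1 cells, and the 3 kept ones were all higher in Tfh cells. Only 1 gene of the list was called higher in Th1 cells after quantile normalization or without Rictor-null Tfh replicate 1 or WT Tfh replicate 2. Cxcr6, a receptor for homing to tissue, was at 357 to 489 on the Th1 and 255 to 342 on the Tfh arrays. Its call (-0.40 ± 0.100, adjusted p = 0.0262) ended after quantile normalization, with no filter, with the ordinary linear model, and without any of 5 single arrays, namely replicate 1 of Rictor-null Tfh, replicate 2 of WT Tfh, either Rictor-null Th1 array or WT Th1 replicate 2.

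**Figure D3:**
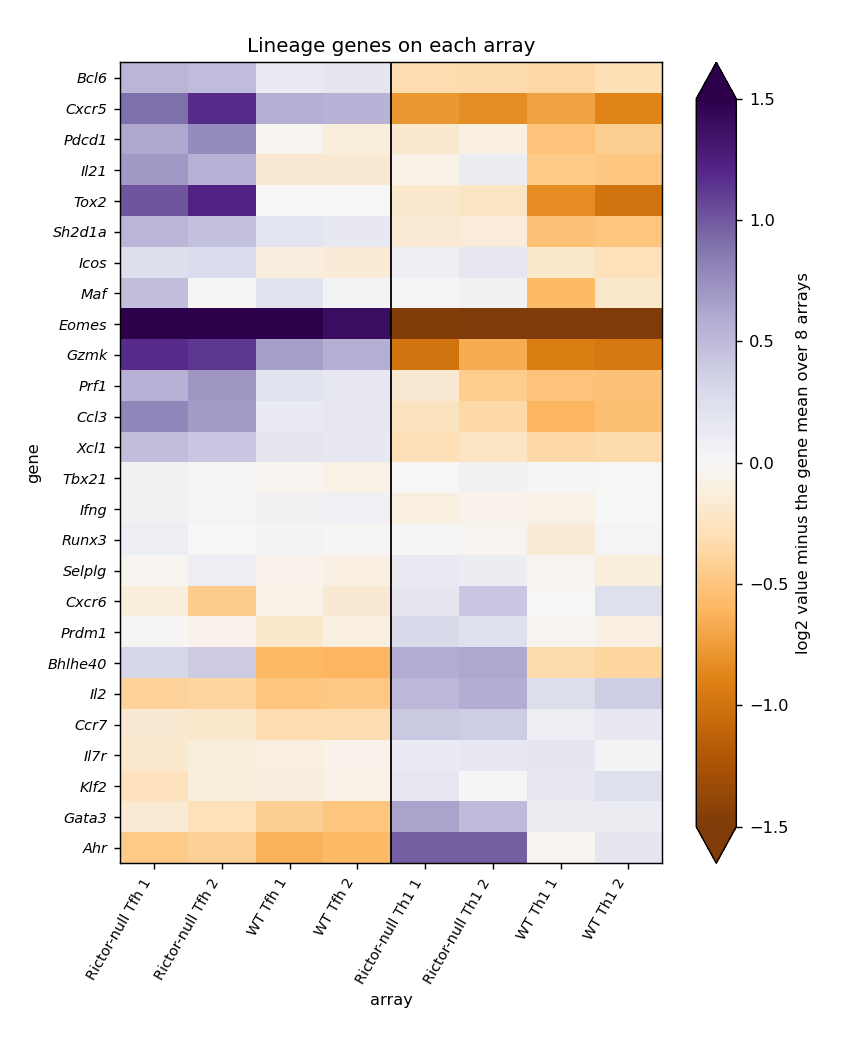
Log2 value of 26 lineage genes on each array (columns, Tfh left and Th1 right of the line) minus the gene's mean over the 8 arrays, with colours limited at 1.5 in either direction. Rows from Bcl6 to Xcl1 are purple on the left and orange on the right for most genes, while the rows of Tbx21, Ifng, Runx3 and Selplg stay near 0 on all arrays.

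The genes with the largest differences toward Th1 cells were not members of either list of Th1 genes above, although the cytokine Il2 was among them. Igfbp4, a secreted protein that binds insulin-like growth factors, had the largest difference. It was at 320 and 285 for Rictor-null Th1 and 740 and 714 for WT Th1 cells, against 77.3 and 73.3 for Rictor-null Tfh and 123 and 141 for WT Tfh cells. The lineages did not overlap, and the difference was -1.93 ± 0.103 or 3.80-fold (adjusted p = 3.35e-06). All 5 other probe sets of Igfbp4 had the same direction and 4 of them were called. Pdlim4, a PDZ and LIM protein of the actin cytoskeleton, was at 140 to 213 on the Th1 arrays and at 26.6 to 40.4 on the Tfh arrays, near or below the array median (-1.68 ± 0.089). Without the Th1 arrays Pdlim4 would not have passed the filter. St8sia6, a sialyltransferase, was at 563 and 498 for Rictor-null Th1 and 339 and 307 for WT Th1 cells, against 137 to 190 on the Tfh arrays (-1.23 ± 0.074). St8sia1, the sialyltransferase that makes the ganglioside GD3, gave -1.06 ± 0.090. Both belong to 18 glycosyltransferases tested, of which 4 were called higher in Th1 cells, against 10.1% of all genes. The count higher in Tfh cells was 0 (1 at an unadjusted p under 0.05, and 1 with the ordinary linear model), against 2.73%. The list median was -0.05.

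Socs2 and Cish, feedback inhibitors of cytokine signalling through STAT5, were both higher in Th1 cells. Socs2 was at 484 and 416 for Rictor-null Th1 and 175 and 175 for WT Th1 cells, against 141 and 167 for Rictor-null Tfh and 87.0 and 91.3 for WT Tfh cells (-1.07 ± 0.110). Of its 2 other probe sets, 1 had the same direction. Cish was at 600 to 979 on the Th1 and 402 to 515 on the Tfh arrays (-0.75 ± 0.070). Ahr, the aryl hydrocarbon receptor, was at 311 and 312 for Rictor-null Th1 and 138 and 163 for WT Th1 cells, against 80.6 to 99.1 on the Tfh arrays (-1.04 ± 0.126, adjusted p = 0.000681).

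The rest of the 15 largest Th1-higher genes with no such overlap lay between -0.90 and -0.79. They were L1cam (-0.90), a cell adhesion protein, Atf3 (-0.88), a stress-induced AP-1 partner, Il2, Tmem176b (-0.86), Trat1 (-0.86), an adaptor of the T cell receptor, Ampd3 (-0.85), an AMP deaminase, Itgb3 (-0.80), the integrin beta 3 chain, and Nebl (-0.79). Ampd3 was at 26.4 to 35.1 on the Tfh arrays, below the array median, and at 74.0 to 96.5 on the Th1 arrays. It thus passed the filter only through the Th1 arrays, where it was high. L1cam was at 518 to 605 on the Th1 and 269 to 323 on the Tfh arrays, and Itgb3 at 361 to 383 and 174 to 233. Both had all Th1 arrays above all Tfh arrays, as the choice of these genes required. All 30 genes of these leading sets were called with the block under each of the 20 alternatives, and 23 were kept under each. The other 7 left the kept set with the ordinary linear model only. The genes were chosen for large, separated differences on these same arrays, so these counts describe dependence on the processing and are no independent support. Of 20 other probe sets of these genes, 19 had the same direction, 16 of them called, and 0 were called the other way.

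Of 8 markers of Th17 and Th2 cells tested, 5 were called higher in Th1 cells, against 10.1% of all genes, 3 were not called, and 0 were called higher in Tfh cells (0 at an unadjusted p under 0.05, and 0 with the ordinary linear model). Of the 5, 4 were kept, and the list median was -0.52. Besides Ahr, Il4 and Tmem176b, they include Gata3, the Th2 regulator that all T cells express at some level. Gata3 was at 838 and 760 for Rictor-null Th1 and 574 and 573 for WT Th1 cells, against 365 to 471 on the Tfh arrays (-0.68 ± 0.058, adjusted p = 7.76e-05). Rora, of the same list, was not called (0.02, adjusted p = 0.795). However, of its 5 other probe sets, 2 were called higher in Tfh cells (0.54, adjusted p = 0.000163, and 0.45, adjusted p = 0.0228). The summed signal of the 11 markers on the array was 2809 to 2869 for Rictor-null Th1 and 1969 to 2121 for WT Th1 cells, against 1682 to 1809 in Tfh cells. Of the 11, 3 were below the array median on all arrays. Fewer cells of a type and less RNA per cell cannot be told apart in such bulk samples, and the part of other helper cells in the Th1-higher genes was not tested.

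Of 25 early-response genes, which T cells switch on soon after stimulation, 13 were called higher in Th1 and 3 higher in Tfh cells, against 10.1% and 2.73% of all genes. Another 9 were not called, and the 6 kept ones were all higher in Th1 cells. The list median was -0.16. The total fell from 16 to 10 without Rictor-null Tfh replicate 1 or WT Tfh replicate 2. Fosl2, an AP-1 subunit, gave -0.75 ± 0.072, with 86.9 to 280 on the Tfh and 204 to 433 on the Th1 arrays. Zfp36, an RNA-binding protein that shortens cytokine transcripts, was at 2376 to 2862 on the Th1 and 1698 to 1850 on the Tfh arrays (-0.53 ± 0.061). Nr4a1, which reports T cell receptor signals, gave -0.32 ± 0.045. It left the kept set without WT Tfh replicate 1 or 2, Rictor-null Th1 replicate 1 or WT Th1 replicate 1. Dusp10, a phosphatase of stress kinases, was at 732 to 807 on the Th1 and 464 to 490 on the Tfh arrays, with -0.65 ± 0.041 (adjusted p = 7.61e-06). Of 22 T cell receptor signalling genes, 2 were called higher in Tfh and 1 higher in Th1 cells.

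Of 14 integrin subunits, 4 were called higher in Th1 cells, against 10.1% of all genes, and 1 higher in Tfh cells, and the 3 kept ones were all higher in Th1 cells. Itgae, the CD103 chain that binds E-cadherin, was at 137 and 152 for Rictor-null Th1 and 89.0 and 105 for WT Th1 cells, against 58.7 to 67.1 on the Tfh arrays (-0.66 ± 0.075). Of 20 genes of S100 proteins, annexins, galectins and the cytoskeleton, 6 were called higher in Th1 and 1 higher in Tfh cells. These compare with 10.1% and 2.73% of all genes. The 4 kept ones were all higher in Th1 cells, and the list median was -0.12. Lmna, lamin A, gave -0.55 ± 0.067, Capg, an actin-capping protein, -0.51 ± 0.056, and Anxa5, annexin A5, -0.36 ± 0.043. Another probe set of Lmna had the opposite sign and was not called. Lmna left the kept set without Rictor-null Th1 replicate 1, and Anxa5 without either WT Tfh array or WT Th1 replicate 1.

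Genes of central memory and lymph node homing were divided. Of 15 tested, 2 were called higher in Tfh cells, Myb and Cd27, and 3 higher in Th1 cells, with a median of -0.02. Ccr7, the receptor for entry into the T cell zone, was at 644 to 810 on the Th1 and 478 to 536 on the Tfh arrays (-0.50 ± 0.044, adjusted p = 8.46e-05). Klf2, which drives egress receptors and opposes the Tfh fate, gave -0.28 ± 0.051, with 2812 to 3269 on the Th1 and 2315 to 2659 on the Tfh arrays. Il7r, the survival receptor of memory cells, was at 4892 to 5325 on the Th1 and 4162 to 4553 on the Tfh arrays (-0.24 ± 0.047). The Tfh and Th1 arrays did not overlap for any of these 3 genes, and Il7r was called with the block but not within WT cells (adjusted p = 0.0640). Gpr183, the oxysterol receptor EBI2 that guides cells to the follicle border, was higher in Tfh cells by 0.39 ± 0.053. Klf2 left the kept set when any 1 array was left out, except replicate 2 of Rictor-null Tfh or of Rictor-null Th1. Cd27 (0.32 ± 0.053) left it when any 1 array of the other 3 groups than Rictor-null Tfh was left out, and Gpr183 without any 1 of the 4 WT arrays.

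Of 26 cytokine receptor chains, 8 were called higher in Th1 and 1 higher in Tfh cells, against 10.1% and 2.73% of all genes. The 1 kept gene was Tgfbr1, a TGF-beta receptor (-0.35 ± 0.043). The number of calls, 9 in all, was 4 or 5 when any 1 array was left out, except replicate 2 of Rictor-null Tfh or of Rictor-null Th1. Tgfbr1 left the kept set without either WT Tfh array or WT Th1 replicate 1. Of 11 inhibitory receptors, 2 were called higher in Tfh and 4 higher in Th1 cells. Lag3, which binds MHC class II, was at 341 and 396 for Rictor-null Tfh and 254 and 228 for Rictor-null Th1 cells, against 118 and 116 for WT Tfh and 61.6 and 75.4 for WT Th1 cells (0.56 ± 0.061). It was higher in Tfh cells within each genotype, with nearly the same difference (0.57 and 0.55). Cd96, a nectin receptor, gave -0.36 ± 0.059 and left the kept set without any 1 of the 4 WT arrays.

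Over all genes 12.9% were called, and the metabolic lists lay on both sides of that share. For oxidative phosphorylation 0 of 37 genes were called with limma (0 at an unadjusted p under 0.05, and 0 with the ordinary linear model), with values from -0.07 to 0.12. For fatty acid oxidation 0 of 16 were called (3 at an unadjusted p under 0.05, and 0 with the ordinary linear model), with values from -0.17 to 0.03. Of 17 glycolysis genes 1 was called, the glucose transporter Slc2a3 (-0.30 ± 0.046), higher in Th1 cells. Slc2a3 left the kept set without Rictor-null Th1 replicate 1 or any 1 of the WT arrays. Of 19 sterol and fatty acid synthesis genes, 2 were called higher in Tfh and 3 higher in Th1 cells, among them the desaturase Scd2 (0.40 ± 0.040) and the sterol desaturase Sc5d (-0.36 ± 0.045). Sc5d left the kept set without either WT Tfh array or WT Th1 replicate 1. Of 21 genes of the mTOR complexes and AKT, 2 were called higher in Th1 and 0 higher in Tfh cells (1 at an unadjusted p under 0.05, and 0 with the ordinary linear model). They were Prr5l (-0.41 ± 0.091), a protein that binds mTOR complex 2, and Eif4ebp1 (-0.28 ± 0.049), a translation inhibitor that mTOR complex 1 phosphorylates. The call of Prr5l ended without Rictor-null Tfh replicate 1 and with the ordinary linear model. Eif4ebp1 left the kept set when any 1 array was left out, except replicate 2 of Rictor-null Tfh or of WT Th1.

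Of 27 interferon-stimulated genes (median -0.08), 6 were called higher in Th1 and 1 higher in Tfh cells, against 10.1% and 2.73% of all genes. The exception was Ifitm1, an interferon-induced membrane protein, at 669 and 663 for Rictor-null Tfh and 285 and 290 for Rictor-null Th1 cells, against 165 and 163 for WT Tfh and 99.8 and 84.6 for WT Th1 cells (0.90 ± 0.086). Of 22 proliferation genes, 3 were called higher in Tfh cells, against 2.73% of all genes, and 0 higher in Th1 cells (0 at an unadjusted p under 0.05, and 0 with the ordinary linear model). Their differences were 0.20 to 0.24 (Stmn1, Birc5 and Rrm2), and the 1 kept gene, Birc5, left the kept set without any 1 of the 8 arrays.

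Of 12 regulatory T cell markers tested, 3 were called higher in each lineage. Foxp3, their defining factor, was below the filter with signals of 16.9 to 41.6. The markers called higher in Th1 cells were Itgae (-0.66), Nrp1 (-0.44 ± 0.104) and Tnfrsf4 (-0.31 ± 0.061). Of these only Itgae was kept, and the call of Nrp1 ended without any 1 of 4 arrays. The 3 other probe sets of Nrp1 were also called higher in Th1 cells. Ikzf2, the factor Helios, was higher in Tfh cells by 0.49 ± 0.055, at 1850 and 1893 for Rictor-null Tfh, 1051 and 1048 for WT Tfh, 1170 and 1300 for Rictor-null Th1, and 771 and 812 for WT Th1 cells. It left the kept set without WT Tfh replicate 1. The summed signal of 13 such markers was 7718 to 7765 for Rictor-null Tfh and 8181 to 8277 for Rictor-null Th1 cells, against 4802 to 4901 for WT Tfh and 5010 to 5046 for WT Th1 cells. It differed by genotype more than by lineage. Of 5 B cell markers tested, Cd22, a receptor of B cells, was called higher in Tfh cells (0.72 ± 0.093), at 298 to 352 on the Tfh and 133 to 246 on the Th1 arrays. It left the kept set without WT Tfh replicate 1. The summed signal of the 17 B cell markers was 2951 to 3336 for Rictor-null Tfh and 2317 to 2373 for Rictor-null Th1 cells. In WT cells it was 2701 to 2764 for Tfh and 2736 to 2892 for Th1. Ighm alone, the largest part of these sums, was at 1925 to 2525 on the Tfh and 1725 to 2213 on the Th1 arrays. The part of B cell RNA in the Tfh-higher genes was not tested. Of 9 myeloid markers, 2 were called higher in Tfh cells, Cd68 and Itgax. Cd68 (0.53 ± 0.072) was at 52.2 to 91.8 on the Tfh and 34.0 to 41.4 on the Th1 arrays. It was kept, but not without either WT Tfh array or WT Th1 replicate 2. Itgax (0.22 ± 0.042, adjusted p = 0.00891) was at 52.6 to 57.7 on the Tfh and 41.0 to 45.4 on the Th1 arrays, and was not kept. The summed signal of 19 myeloid markers was 1108 to 1264 in Tfh and 1052 to 1260 in Th1 cells.

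**Figure D4:**
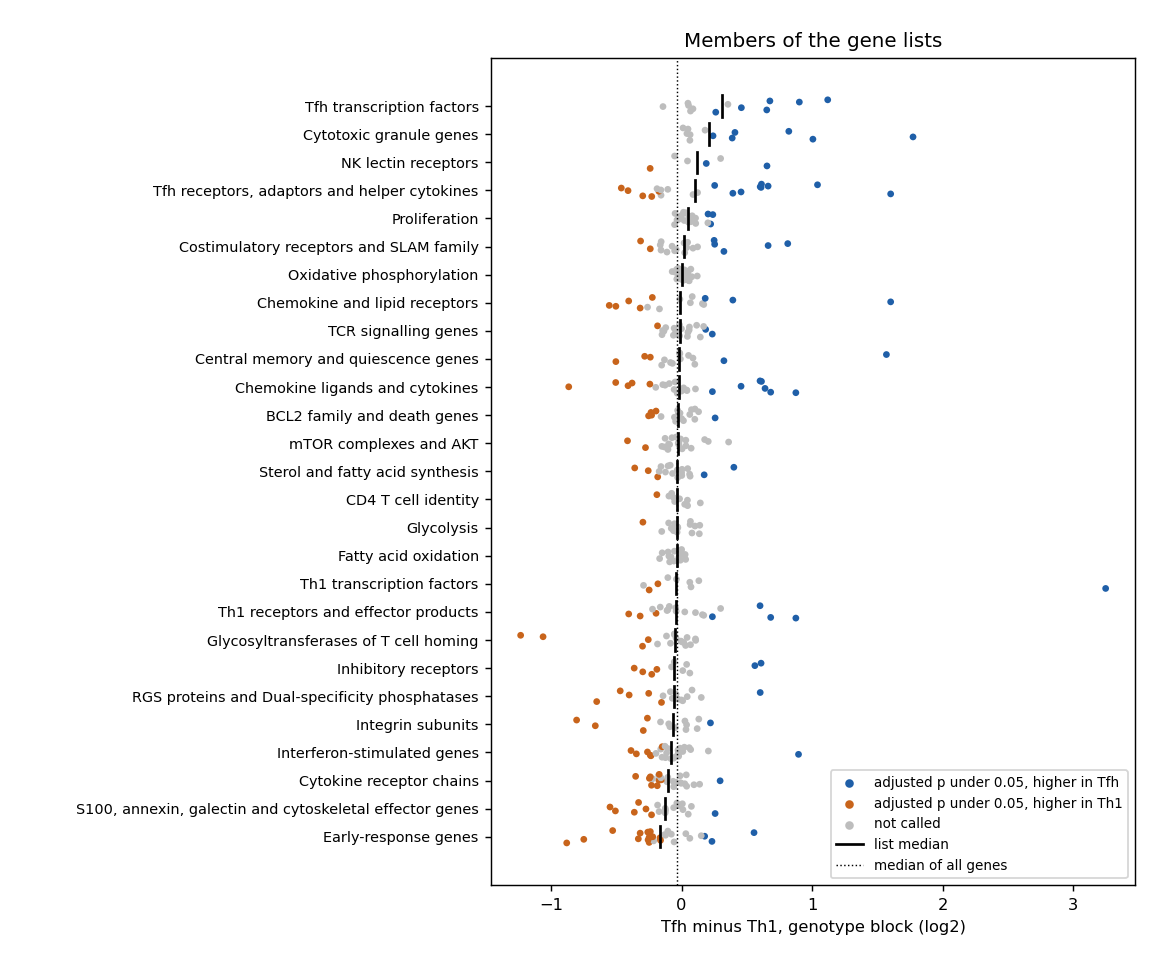
Tfh minus Th1 difference (log2, genotype block) of every tested member of 27 gene lists, ordered by list median, with called genes in blue (higher in Tfh) or orange (higher in Th1). The medians run from 0.31 for Tfh transcription factors to -0.16 for early-response genes, with most lists close to the median of all genes (-0.03, dotted).

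Of 15 chemokine and lipid receptors, 3 were called higher in Tfh and 5 higher in Th1 cells. Ccr9, a gut homing receptor, gave -0.55 and left the kept set without any 1 of the 4 WT arrays. Its signals were 66.8 and 69.8 for Rictor-null Tfh and 156 and 144 for Rictor-null Th1 cells. They were 20.1 and 19.4 for WT Tfh and 28.0 and 30.9 for WT Th1 cells, below the array median. Ccr9 thus passed the filter only through the Rictor-null arrays, and its call in WT rests on dim signals. Of 16 RGS proteins and dual-specificity phosphatases, 1 was called higher in Tfh and 5 higher in Th1 cells, against 2.73% and 10.1% of all genes. Rgs16 (0.60) and Rgs1 (-0.40), which damp signals of chemokine receptors, had opposite directions. Rgs16 left the kept set without Rictor-null Th1 replicate 1 or any 1 of the 4 WT arrays, and Rgs1 without any 1 of the 4 WT arrays. Of 20 costimulatory receptors and SLAM family members, 5 were called higher in Tfh and 2 higher in Th1 cells. Of 19 genes of the BCL2 family and cell death, 1 was called higher in Tfh and 4 higher in Th1 cells, beside the same shares. Among the 10 CD4 T cell genes 1 was called, Cd5, a receptor that dampens T cell receptor signals (-0.19, adjusted p = 0.0360), and that call ended without any 1 of 6 arrays.

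Whether the kept differences had the same size in both genotypes was tested with the interaction. Over all genes 136 (1.21%) were called, with 2145 at an unadjusted p under 0.05. Of the 406 kept genes 16 (3.94%) were called, 10 with the larger difference in Rictor-null and 6 with the larger in WT cells. As a description, 255 of the kept genes had the larger absolute difference in Rictor-null cells and 151 in WT cells. Among genes described above, Ahr differed more between lineages in Rictor-null (-1.42) than in WT cells (-0.67), and so did Socs2 (-1.37 and -0.77) and Tmem176b (-1.16 and -0.56). For Sostdc1 the values were 1.31 and 0.77, for Ifitm1 1.13 and 0.66, and for Il10 1.01 and 0.27. The reverse held for Igfbp4, with -1.64 in Rictor-null and -2.21 in WT cells, and for Gzma, with 0.63 and 1.38. For Eomes the interaction was 0.13 (adjusted p = 0.511) and for Myb 0.01 (adjusted p = 0.96), and no difference in size was detectable with 2 arrays a group. The count of interaction calls was 1602 without Rictor-null Tfh replicate 1 and 27 without WT Tfh replicate 1. It was 89 without replicate 2 of Rictor-null Tfh, 30 without that of WT Tfh, 29 and 47 without Rictor-null Th1 replicate 1 and 2, and 77 and 60 without WT Th1 replicate 1 and 2.

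Among the named genes called in opposite directions, the largest interactions were those of Lamtor2, Swi5 and Bst2. Lamtor2, a subunit of the Ragulator complex on lysosomes, was at 505 and 516 for Rictor-null Tfh and 279 and 293 for Rictor-null Th1 cells, but at 287 and 276 for WT Tfh and 435 and 531 for WT Th1 cells. It was thus higher in Tfh cells without Rictor (0.77) and lower in WT Tfh cells (-0.71). Its other probe set gave -0.07 with the block and was not called, where the probe set used gave 0.03. The difference of that other probe set in each genotype was not examined. Swi5, a DNA repair factor, gave 0.86 and -0.62, and Bst2, the interferon-induced restriction factor tetherin, gave 0.62 and -0.78. All 33 such genes were called for the interaction. This adds no support, since the interaction is the difference between the same comparisons by which they were chosen.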

How the data were processed

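RNA of memory Tfh and Th1 cells from Rictor-null and wild-type mice was measured on 8 Affymetrix mouse arrays, 2 per group, grouped by the sample titles. The deposited values are probe set intensity on a linear scale. Per the submitters' processing notes, MAS5 and RMA were used, with no version or order given, so the scaling between arrays is not known. No genome build for the probe sets is given in the sources used here.

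Of 45037 probe sets, 34945 had 1 gene symbol in the platform annotation, 932 had several and 9160 none. Symbols of 34741 were matched to RefSeq by gene ID. Probe sets above the array median on at least 2 arrays were kept (23725, of which 19671 with 1 symbol), and the brightest stood for its gene. Values were log2(intensity + 32). limma 3.58.1 in R 4.3.3 fitted lineage with genotype as a block, and 1 mean per group for the lineage difference in each genotype and their interaction, with Benjamini-Hochberg adjustment over 11217 genes. The scripts were tested on simulated data. Python 3.11.15 and matplotlib 3.10.9 were used for joins and plots.

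Genes named are the 15 largest kept and separated per direction, up to 4 of smallest p per list, the brightest markers of other cells, a fixed set, and those with the largest interactions. The members and lists were chosen with earlier results of these data known, so their counts are descriptions. Alternatives changed scaling, filter, pseudocount, probe set rule, variance model, design and single arrays.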

Additional observations from a re-analysis of the deposited data

Results flagged for a closer look

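For 17 named genes the Tfh minus Th1 difference (log2) itself differed between Rictor-null and WT cells by limma's interaction test, with Benjamini-Hochberg adjustment over all genes. The values here are the Rictor-null difference minus the WT difference, with adjusted p. Among the leading Th1-higher genes it was 0.575 for Igfbp4 (0.0257), -0.598 for Socs2 (0.0338), -0.746 for Ahr (0.00564) and -0.595 for Tmem176b (0.0201). Ccr9, which was below the array median on the WT arrays, gave -0.613 (0.0063).

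Among Tfh-higher genes it was 0.547 for Sostdc1 (0.0118), -0.747 for Gzma (0.00499), 0.466 for Ifitm1 (0.0377) and 0.74 for Il10 (0.00378). Klrg1, a receptor of differentiated effector cells, gave -0.62 (0.0165), with 0.609 in WT and -0.011 in Rictor-null cells. Ighm, the immunoglobulin mu chain of B cells, gave 0.592 (0.0169), with -0.144 in WT and 0.448 in Rictor-null cells.

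Opposite directions in the genotypes were seen for Lamtor2 (1.48, adjusted p = 0.000379), Swi5 (1.48, 0.000801) and Bst2 (1.4, 0.000801). The same held for Dnajc7, a chaperone partner (1.27, 0.000559), Pdia3, a disulphide isomerase (1.18, 0.0136), and Clic1, a chloride channel protein (1.03, 0.000801).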

How the results depend on the processing

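Of the 107 named genes that were called with the block, 78 were called in every setting, and of the 80 kept ones 36 were kept in every setting. Fads1, a fatty acid desaturase (0.17, adjusted p = 0.0218), gave -0.01 and -0.13 without WT Tfh replicate 1 and 2, against at most 0.19 without another array. The brightest probe set was chosen anew in each alternative, and these negative values are of the other probe set. That probe set gave -0.08 on all arrays and was not called. On the probe set used above, WT Tfh arrays (74.3 and 76.2) were above WT Th1 arrays (59.5 and 64.2). Counts of calls moved more than single genes. With the block, 1442 calls became 955 after quantile normalization, 2954 with array weights, 717 with the ordinary linear model and 2247 with the average contrast of 4 group means. The 406 kept genes became 112 with the ordinary linear model and 1388 when a call with the block and no overlap within either genotype was asked. The 1653 WT calls became 1007 after quantile normalization, 3175 with array weights, 238 with the ordinary linear model and 2592 in a separate fit. The 1090 Rictor-null calls became 660, 280 and 595 with the latter 3. The 136 interaction calls became 65 with no filter, 86 with a larger pseudocount and 1 with the ordinary linear model. Leaving out 1 array gave 632 to 2694 calls with the block, 140 to 485 kept genes, 196 to 2669 calls in WT, 387 to 1641 in Rictor-null cells, and 27 to 1602 for the interaction. After quantile normalization the Tfh share of kept genes was 38.7%, against 25.6%, and after median scaling it was 19.4%.

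The titles number the replicates but do not say whether same-numbered arrays were paired. Deviations of same-numbered arrays correlated between -0.51 and 0.28 over the 6 pairs of groups. The value of -0.51 was that of Rictor-null Tfh with WT Th1, where arrays of unlike number deviated together. Pairing or a shared batch under another numbering was not tested. With the replicate block 962 genes were called between lineages, 285 were kept, 1003 were called in WT and 796 in Rictor-null cells, and 91 for the interaction.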
